A study of Mus musculus with 24 samples.

Results

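The genes described here are 7 subunits of the NADPH oxidases, Cybb, Cyba, Ncf1, Ncf4, Rac2, Nox1 and Nox4, chosen by their symbols from a table of 32561 genes, in which all 7 were found. RNA was measured in 24 libraries of mouse aorta, and the study's question was how renal failure, sex and an altered Bmp2 gene affect gene expression in that vessel. The 6 groups of 4 mice, aged 44 to 53 days, were Bmp2+/+ male Kl/Kl and control mice, Bmp2+/+ female Kl/Kl and control mice, and male Kl/Kl and control mice homozygous for the Bmp2 allele written deltaUCS. Kl/Kl mice were homozygous for a recessive Klotho mutation and are labelled as having renal failure, while controls carried at most 1 Kl allele and are labelled as healthy. Female deltaUCS mice were not analysed here. All animals were congenic on the 129S1/SvlmJ strain, and all received moistened chow after weaning, since the labels describe Kl/Kl mice as smaller and weaker. The Klotho genotype and renal failure went together in every animal and cannot be told apart. The labels do not say whether any aortas were pooled, and p-values measure the spread between libraries.

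NADPH oxidases move electrons from NADPH across a membrane to oxygen and so make superoxide or hydrogen peroxide. In phagocytes the catalytic subunit NOX2, encoded by Cybb, sits in the membrane with its partner Cyba. When the cell is activated, cytosolic subunits, Ncf1 and Ncf4 among them, and the small GTPase Rac2, which is made mainly in blood cells, join them, and the burst of superoxide helps to kill microbes. Vascular smooth muscle cells instead use NOX1, which also needs partner proteins, and NOX4, which works with Cyba alone and makes mainly hydrogen peroxide. Macrophages that enter an artery bring the phagocyte enzyme with them, and oxidants from both kinds of enzyme are studied in the calcified, stiff arteries of renal failure.

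The libraries held an estimated 20613000 to 61088000 reads, and mitochondrial transcripts took 40.2% to 61.2% of their TPM. Without the 2 libraries left out below, that share was 40.2% to 55.8% in Kl/Kl Bmp2+/+ males against 47.3% to 58.6% in controls, 44.9% to 54.8% in Kl/Kl females against 52.2% to 60.0% in controls, and 40.9% to 52.5% in Kl/Kl deltaUCS males against 53.5% to 61.2% in controls. It was lower at the median in Kl/Kl of each stratum, without overlap in deltaUCS males. As TPM has a fixed total, the TPM of other genes depends on this share, and median-of-ratios values are given beside the results on scaling. The deposited TPM divides by genomic span, introns included, and so serves to set libraries side by side for 1 gene at a time. The labelled sex did not match the sex-linked transcripts of 2 libraries. Bmp2+/+ male Kl/Kl replicate 1 had Xist, made from the inactive X, at 11.4 TPM and the Y gene Ddx3y at 0.0138 TPM, while Bmp2+/+ female Kl/Kl replicate 2 had them at 0.0281 and 4.81 TPM. Both carry a Kl/Kl label, and both stood near the controls for Cybb. So they did for Spp1, a gene outside the members and lists, at 0.459 and 0.347 TPM. Spp1 had 35.3 to 286 TPM in the Kl/Kl libraries kept and 0.199 to 5.54 TPM in controls. The Klotho genotype of these 2 libraries was not tested. Results are given without these 2 libraries (22 libraries) and with them (24 libraries). The targeted gene Kl was barely detected in aorta, at 8.46e-08 to 0.0102 TPM in the Kl/Kl libraries of the 3 strata and 0.00317 to 0.0175 TPM in the controls, so it gives no usable check of the Kl/Kl label. Bmp2 was detected in every deltaUCS library, at 0.185 to 1.17 TPM.

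The start regions of Cybb and Ncf1 are shown because these subunits were called together in the data below, and that of Nox4 for contrast, as the catalytic subunit of smooth muscle. RefSeq's promoter table (GRCm38.p6) held 5 of the 7 members, all but Ncf4 and Rac2. Each line gives 300 bases, 250 before and 50 after the start site, read 5′ to 3′ along the gene. Capitals mark the letters GAAANNGAAA on either strand, which read TTTCNNTTTC where the match lies on the opposite strand. These letters form the core of the response element bound by interferon regulatory factors.
Cybb, chrX:9469275-9469574, minus strand: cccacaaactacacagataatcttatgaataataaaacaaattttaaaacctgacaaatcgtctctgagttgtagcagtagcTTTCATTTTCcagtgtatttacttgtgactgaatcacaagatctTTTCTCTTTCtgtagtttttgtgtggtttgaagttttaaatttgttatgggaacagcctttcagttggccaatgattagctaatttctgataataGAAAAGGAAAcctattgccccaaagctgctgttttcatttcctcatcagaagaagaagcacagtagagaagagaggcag
Ncf1, chr5:134229576-134229875, minus strand: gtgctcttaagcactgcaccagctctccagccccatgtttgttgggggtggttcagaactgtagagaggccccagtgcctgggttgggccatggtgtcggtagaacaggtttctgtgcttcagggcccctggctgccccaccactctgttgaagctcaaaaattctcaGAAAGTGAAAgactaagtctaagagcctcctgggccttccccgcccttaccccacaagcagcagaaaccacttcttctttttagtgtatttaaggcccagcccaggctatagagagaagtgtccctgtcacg
Nox4, chr7:87246399-87246698, plus strand: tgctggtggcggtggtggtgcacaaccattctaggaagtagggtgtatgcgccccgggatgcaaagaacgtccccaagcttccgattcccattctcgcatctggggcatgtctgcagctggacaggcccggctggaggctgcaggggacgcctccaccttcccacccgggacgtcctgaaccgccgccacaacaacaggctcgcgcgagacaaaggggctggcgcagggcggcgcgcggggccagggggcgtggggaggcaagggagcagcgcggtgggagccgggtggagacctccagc
The Cybb window held 3 such matches, with their leftmost bases, as printed, 168, 124 and 29 bases before the start site, and the Ncf1 window held 1, at 82 bases. The windows of Cyba, Nox1 and Nox4 held 0, and 3.44% of all 32851 windows of that length held at least 1. On either strand, GAGGAA, the core letters bound by PU.1 of myeloid cells, occurred once each in the Cybb and Nox1 windows (28.3% of all windows). TGANTCA, a looser form of the AP-1 letters with any middle base, matched at 1 site in the Cybb window (7.81% of all windows). That site, 139 bases before the start, has A in the middle and not the C or G of the AP-1 letters. The CArG box of smooth muscle genes occurred in 0 of the 5 windows, against 1.63% of all windows. None of these matches overlapped another. These are matches of letters in a window of another genome build than the expression table, and they say nothing about binding.

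Of the phagocyte subunits, Cybb rose in Kl/Kl aortas of all 3 strata and Ncf1 in both Bmp2+/+ strata, without the 2 doubted libraries. The main test was limma on log2(TPM + 1) over 9933 genes with Benjamini-Hochberg adjustment, and a difference is called where the adjusted p is below 0.05. Of the 7 members 5 reached the filter of 1 TPM in at least 4 libraries, counted over all 24, and Nox1 and Nox4 did not. Among the 5, Kl/Kl was called higher for 2 in Bmp2+/+ males (Cybb and Ncf1), 3 in Bmp2+/+ females (Cybb, Ncf1 and Cyba) and 1 in deltaUCS males (Cybb). Over all genes tested, 1.04%, 2.58% and 0.534% were called higher in the same 3 comparisons. Lower calls were 0.0604%, 0.0201% and 0.111% of all genes and included 0 members. Cybb reached 1 TPM in 9 libraries and Ncf4 in 6, all of them Kl/Kl, so both entered the tests only through the group in which they were high. Ncf1 reached it in 13 libraries, of which 2 were controls, and would not have passed on controls alone. With no filter Cybb in both Bmp2+/+ strata and Ncf1 in females were still called, while Cybb in deltaUCS males (adjusted p = 0.0906 in limma), Ncf1 in males (0.0685) and Cyba in females (0.0513) were not. With all 24 libraries 0 members were called, and 0.0% of all genes were called in any of these comparisons, although 603, 1498 and 1628 genes had an unadjusted limma p below 0.05.

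Cybb (ENSMUSG00000015340, mm39 chromosome X, 9301491 to 9354011, minus strand) encodes the catalytic subunit. In Bmp2+/+ males it had 3.55, 2.53 and 2.09 TPM in Kl/Kl aortas, with 0.522 TPM in the library left out, against 0.327, 0.153, 0.524 and 0.182 TPM in controls. The 3 Kl/Kl aortas lay above every control, as for 5.73% of all genes tested, and the library left out lay beside the highest control. Kl/Kl males averaged 2.72 ± 0.749 TPM and controls 0.296 ± 0.17 TPM (SD, n = 3 and 4), a 9.17-fold ratio. On the log2(TPM + 1) scale, which understates the change of a low gene, Cybb rose by 1.46 (SE 0.22, 95% interval 0.99 to 1.93, adjusted p = 0.000994 in limma). Here, as in any bulk tissue, more cells of a type and more RNA per cell cannot be told apart.

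In Bmp2+/+ females Cybb had 4.02, 4.74 and 5.27 TPM in Kl/Kl aortas, with 0.306 TPM in the library left out, against 0.352, 0.229, 0.233 and 0.232 TPM in controls. The groups did not overlap without the doubted library, which itself read like a control. Without that library, 28.2% of all genes tested had Kl/Kl females above controls with no overlap. The means were 4.67 ± 0.627 TPM in Kl/Kl and 0.262 ± 0.0601 TPM in control females (SD, n = 3 and 4), a 17.9-fold ratio. Cybb rose by 2.16 on the log2(TPM + 1) scale (SE 0.22, 95% interval 1.70 to 2.63, adjusted p = 4.75e-06 in limma).

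In deltaUCS males, all 4 Kl/Kl libraries of which were kept, Cybb had 1.91, 2.14, 1.76 and 0.322 TPM in Kl/Kl aortas, against 0.17, 0.234, 0.227 and 0.493 TPM in controls. Replicate 4 of the Kl/Kl group lay within the control range, so the groups overlapped. The means were 1.53 ± 0.822 TPM in Kl/Kl and 0.281 ± 0.144 TPM in control deltaUCS males (SD, n = 4 each), a 5.44-fold ratio. Cybb rose by 0.91 on the log2(TPM + 1) scale (SE 0.20, 95% interval 0.48 to 1.34, adjusted p = 0.046 in limma). That call was lost when any replicate of these 2 groups but Kl/Kl replicate 4 was left out, with adjusted p between 0.0535 and 0.203 in limma. Within the first library set alone, which holds 2 Bmp2+/+ male libraries of each kind, Cybb differed by 1.49 in Bmp2+/+ males (adjusted p = 0.437), and females were all in the second set. With all 24 libraries the log2 difference of Cybb was 1.19 in males, 1.64 in females and 0.91 in deltaUCS males, with adjusted p of 0.589, 0.15 and 0.248 in limma.

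**Figure D1:**
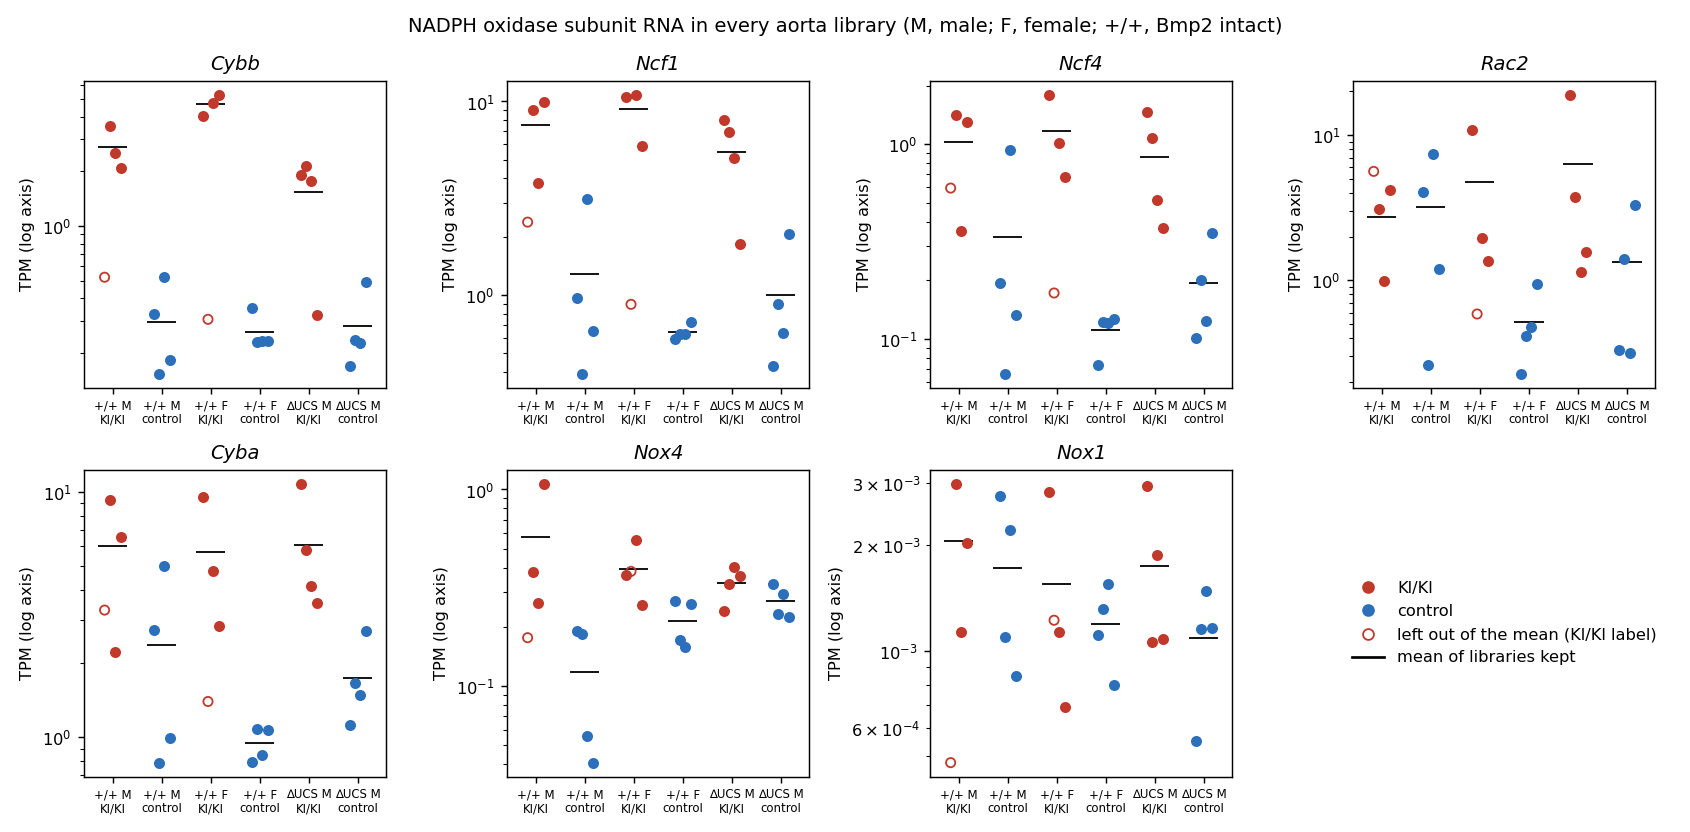
TPM of each subunit in every library (log axis), by group, with Kl/Kl in red left of its control in blue, the mean of the libraries kept as a black line, and the 2 libraries left out as open circles. Cybb of Bmp2+/+ females lies between 4.02 and 5.27 TPM in the 3 Kl/Kl libraries kept and between 0.229 and 0.352 TPM in controls, while Nox1 lies below 0.003 TPM in every library.

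Ncf1 (ENSMUSG00000015950, mm39 chromosome 5, 134248907 to 134258480, minus strand) encodes the cytosolic organiser that brings the other cytosolic subunits to the membrane. In Bmp2+/+ males it had 9.06, 3.79 and 9.95 TPM in Kl/Kl aortas, with 2.38 TPM in the library left out, against 0.968, 0.391, 3.15 and 0.652 TPM in controls. The 3 Kl/Kl aortas lay above every control, as for 5.73% of all genes tested, with control replicate 3 closest to them. The means were 7.60 ± 3.33 TPM in Kl/Kl and 1.29 ± 1.26 TPM in control males (SD, n = 3 and 4), a 5.90-fold ratio (the control mean was 0.67 TPM without control replicate 3), and Ncf1 rose by 1.91 on the log2(TPM + 1) scale (SE 0.42, adjusted p = 0.0256 in limma). This call was lost on leaving out Kl/Kl replicate 2 or 4 or control replicate 1, 2 or 4, with adjusted p of 0.0973, 0.991, 0.0828, 0.0909 and 0.0767. Without Kl/Kl replicate 4 the log2 difference was 1.28.

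In Bmp2+/+ females Ncf1 had 10.6, 10.8 and 5.91 TPM in Kl/Kl aortas, with 0.895 TPM in the library left out, against 0.594, 0.631, 0.628 and 0.723 TPM in controls. The 3 Kl/Kl libraries kept lay above every control. The doubted one, at 0.895 TPM, was also above them but nearer to the controls than to the other Kl/Kl libraries. Among the libraries kept, 28.2% of all genes tested had Kl/Kl above control without overlap, and the share with the doubted library was not computed. The means were 9.12 ± 2.78 TPM in Kl/Kl and 0.644 ± 0.0554 TPM in control females (SD, n = 3 and 4), a 14.2-fold ratio, and Ncf1 rose by 2.58 on the log2(TPM + 1) scale (SE 0.41, adjusted p = 0.000699 in limma). In deltaUCS males it had 8.01, 6.97, 5.12 and 1.84 TPM in Kl/Kl aortas, against 0.428, 0.895, 0.636 and 2.06 TPM in controls. As for Cybb, Kl/Kl replicate 4 was the low one and fell inside the control range. The log2(TPM + 1) difference was 1.63 (SE 0.38), with an adjusted p of 0.0561 in limma, above the threshold. Without Kl/Kl replicate 4 the adjusted p was 0.00605, and with all 24 libraries 0 of the 3 differences were called, at 1.64, 1.99 and 1.63 in males, females and deltaUCS males (adjusted p of 0.589, 0.15 and 0.151 in limma). An overlapping gene on the opposite strand, Gtf2ird2, had a median of 0.143 TPM over the libraries, and whether counting used strand is not given in the sources used here.

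Ncf4 (ENSMUSG00000071715, mm39 chromosome 15, 78129001 to 78146781, plus strand) encodes the cytosolic subunit that binds a membrane phosphoinositide. It had 1.42, 0.36 and 1.30 TPM in Kl/Kl Bmp2+/+ males, against 0.194, 0.066, 0.939 and 0.133 TPM in controls, and the groups overlapped through control replicate 3. In females it had 1.79, 1.02 and 0.679 TPM in Kl/Kl aortas, against 0.0732, 0.122, 0.12 and 0.127 TPM in controls, with no overlap and a 10.5-fold ratio of means. Kl/Kl deltaUCS males had 1.46, 1.07, 0.519 and 0.37 TPM of Ncf4, against 0.101, 0.201, 0.123 and 0.349 TPM in controls, again with no overlap. Kl/Kl lay above control without overlap for 28.2% of all genes tested in females and 8.17% in deltaUCS males. The libraries left out had 0.595 TPM (labelled male Kl/Kl) and 0.172 TPM (labelled female Kl/Kl). On the log2(TPM + 1) scale the differences were 0.58 (SE 0.25), 0.93 (SE 0.25) and 0.60 (SE 0.23) in males, females and deltaUCS males, and none passed the threshold (adjusted p of 0.402, 0.0509 and 0.198 in limma). The female difference, just above it, passed in limma with median-of-ratios scaling (adjusted p = 0.0143), a pseudocount of 0.1 (0.0338), no library set (0.043), the compared groups alone (0.0324) and library set 2 alone (0.015). They were 0.53, 0.72 and 0.60 with all 24 libraries (adjusted p of 0.815, 0.272 and 0.25).

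Because a pseudocount of 1 TPM is large beside these levels, the same libraries were also tested with limma voom on reads estimated from the TPM steps, over 22284 genes. There Ncf4 rose by 2.75 in females (SE 0.56, adjusted p = 0.00889), and differed by 1.81 in males (SE 0.53, adjusted p = 0.113) and 1.68 in deltaUCS males (adjusted p = 0.103). In the same test Cybb rose by 3.04, 3.62 and 1.83 in males, females and deltaUCS males (adjusted p = 0.000166, 1.99e-05 and 0.0124), and Ncf1 by 2.65, 3.19 and 2.07 (adjusted p = 0.00266, 0.000372 and 0.0161). Over all genes in that test 1.33%, 1.93% and 0.705% were called higher in the 3 comparisons. With all 24 libraries this test also called 0.0% of genes.

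Cyba (ENSMUSG00000006519, mm39 chromosome 8, 123151515 to 123159670, minus strand) encodes the membrane partner shared by NOX1, NOX2 and NOX4. In Bmp2+/+ females it had 9.54, 4.75 and 2.84 TPM in Kl/Kl aortas, with 1.40 TPM in the library left out, against 0.791, 1.08, 0.844 and 1.07 TPM in controls. The 3 Kl/Kl libraries kept did not overlap the controls. The doubted one, at 1.40 TPM, was also above them but nearer to the controls than to the other Kl/Kl libraries. Without that library, 28.2% of all genes tested had Kl/Kl females above controls in this way. The means were 5.71 ± 3.45 TPM in Kl/Kl and 0.948 ± 0.152 TPM in control females (SD, n = 3 and 4), with 3.79 TPM in Kl/Kl without replicate 1, and Cyba rose by 1.66 on the log2(TPM + 1) scale (SE 0.43, adjusted p = 0.0437 in limma). The call was lost without Kl/Kl replicate 1 or 3 (adjusted p of 0.254 and 0.129) and without control replicate 1, 2, 3 or 4 (0.0519, 0.0955, 0.122 and 0.0897).

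In Bmp2+/+ males Cyba had 9.30, 2.22 and 6.52 TPM in Kl/Kl aortas, with 3.30 TPM in the library left out, against 2.75, 0.789, 5.01 and 0.991 TPM in controls. These groups overlapped, and the log2(TPM + 1) difference was 0.97 (SE 0.43, adjusted p = 0.43 in limma). Kl/Kl deltaUCS males had 10.8, 5.80, 4.12 and 3.54 TPM of Cyba, against 1.12, 1.67, 1.49 and 2.72 TPM in controls. Those groups did not overlap, as for 8.17% of all genes tested, with a 3.46-fold ratio of means. The log2(TPM + 1) difference of 1.29 (SE 0.40) did not pass the threshold (adjusted p = 0.105 in limma). An overlapping gene on the opposite strand, Galnt2l, had a median of 0.0104 TPM. With all 24 libraries the differences of Cyba were 0.93, 1.32 and 1.29 in males, females and deltaUCS males (adjusted p of 0.808, 0.239 and 0.158 in limma).

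Rac2 (ENSMUSG00000033220, mm39 chromosome 15, 78443367 to 78456984, minus strand) encodes the blood cell GTPase of the complex and varied widely within groups. In Bmp2+/+ males it had 3.08, 0.989 and 4.17 TPM in Kl/Kl aortas, with 5.63 TPM in the library left out, against 4.03, 0.262, 7.42 and 1.19 TPM in controls. The ranges ran through each other, and the log2(TPM + 1) difference was -0.06 (SE 0.73, 95% interval -1.59 to 1.47, adjusted p = 0.99 in limma), which leaves room for a change of either sign. The sign itself turned with the setting, to 0.31 with all 24 libraries. In females it had 10.9, 1.97 and 1.37 TPM in Kl/Kl aortas, with 0.587 TPM in the library left out, against 0.227, 0.414, 0.474 and 0.938 TPM in controls. The groups kept did not overlap, but Kl/Kl replicate 1 was far above the other Kl/Kl aortas, and the difference of 1.55 (SE 0.72, adjusted p = 0.192 in limma) was not called. Kl/Kl deltaUCS males had 18.9, 3.76, 1.14 and 1.58 TPM of Rac2, against 0.333, 1.40, 0.317 and 3.31 TPM in controls. These groups overlapped, Kl/Kl replicate 1 was the highest of all 24 libraries, and the difference was 1.21 (SE 0.67, adjusted p = 0.349 in limma). Groups without overlap, Kl/Kl above control, were found for 5.73%, 28.2% and 8.17% of all genes tested in males, females and deltaUCS males.

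Nox4 (ENSMUSG00000030562, mm39 chromosome 7, 86895304 to 87047919, plus strand) encodes the catalytic subunit that smooth muscle and other vessel wall cells make. With 268 to 5009 estimated reads per library it was read well, but its long span keeps its TPM below the filter. In Bmp2+/+ males it had 0.382, 0.265 and 1.07 TPM in Kl/Kl aortas, with 0.176 TPM in the library left out, against 0.191, 0.183, 0.0556 and 0.0407 TPM in controls. The 3 Kl/Kl aortas kept lay above every control, with replicate 4 well above the others, and Kl/Kl males lay above controls without overlap for 5.12% of the 22284 genes tested by voom. The means were 0.574 ± 0.437 TPM in Kl/Kl and 0.118 ± 0.0805 TPM in control males (SD, n = 3 and 4), a 4.88-fold ratio with p = 0.0286 in a two-sided exact permutation test, the smallest p this design can give. Adjusted over the 10 tests of Nox1 and Nox4 it was 0.143, and with all 24 libraries the unadjusted exact p was 0.0857 and the groups overlapped. In limma voom over all genes Nox4 rose by 2.27 in these males (SE 0.51, 95% interval 1.2 to 3.33, adjusted p = 0.0268). Without Kl/Kl replicate 4 this was 1.72 (adjusted p = 0.584), and the call was also lost without Kl/Kl replicate 3 (0.0832) and control replicates 3 (0.0846) and 4 (0.0688).

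In Bmp2+/+ females Nox4 had 0.369, 0.554 and 0.259 TPM in Kl/Kl aortas, with 0.383 TPM in the library left out, against 0.27, 0.172, 0.158 and 0.26 TPM in controls. The groups overlapped, with a 1.83-fold ratio of means (exact permutation p = 0.0857, two-sided) and a limma voom difference of 0.26 (SE 0.49, 95% interval -0.77 to 1.29, adjusted p = 0.828). In deltaUCS males it had 0.241, 0.332, 0.403 and 0.364 TPM in Kl/Kl aortas, against 0.331, 0.232, 0.295 and 0.225 TPM in controls. These too overlapped, with a 1.24-fold ratio (exact permutation p = 0.143, two-sided) and a limma voom difference of -0.11 (SE 0.43, 95% interval -1.01 to 0.79, adjusted p = 0.922). An increase of up to about the upper bounds of these intervals is within what the data allow.

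Nox1 (ENSMUSG00000031257, mm39 chromosome X, 132987170 to 133122706, minus strand) encodes the other smooth muscle catalytic subunit and was close to the limit of detection, at 2 to 20 estimated reads per library. Its TPM was 0.00299, 0.00113 and 0.00203 in Kl/Kl Bmp2+/+ males, against 0.00276, 0.00109, 0.0022 and 0.000846 in controls. The groups ran through each other, with means of 0.00205 TPM in Kl/Kl and 0.00173 TPM in control males (exact permutation p = 0.629, two-sided). In females the means were 0.00155 TPM in Kl/Kl and 0.00119 TPM in controls, and in deltaUCS males 0.00174 TPM in Kl/Kl and 0.00109 TPM in controls (exact permutation p = 0.714 and 0.286). Its 95% interval in limma voom was -0.90 to 0.89 in males, so a change below about that size was not detectable at this depth. The span of Nox1 also holds Xkrx on the same strand and Cstf2 and Arl13a on the other, so some of its few reads are of uncertain origin.

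**Figure D2:**
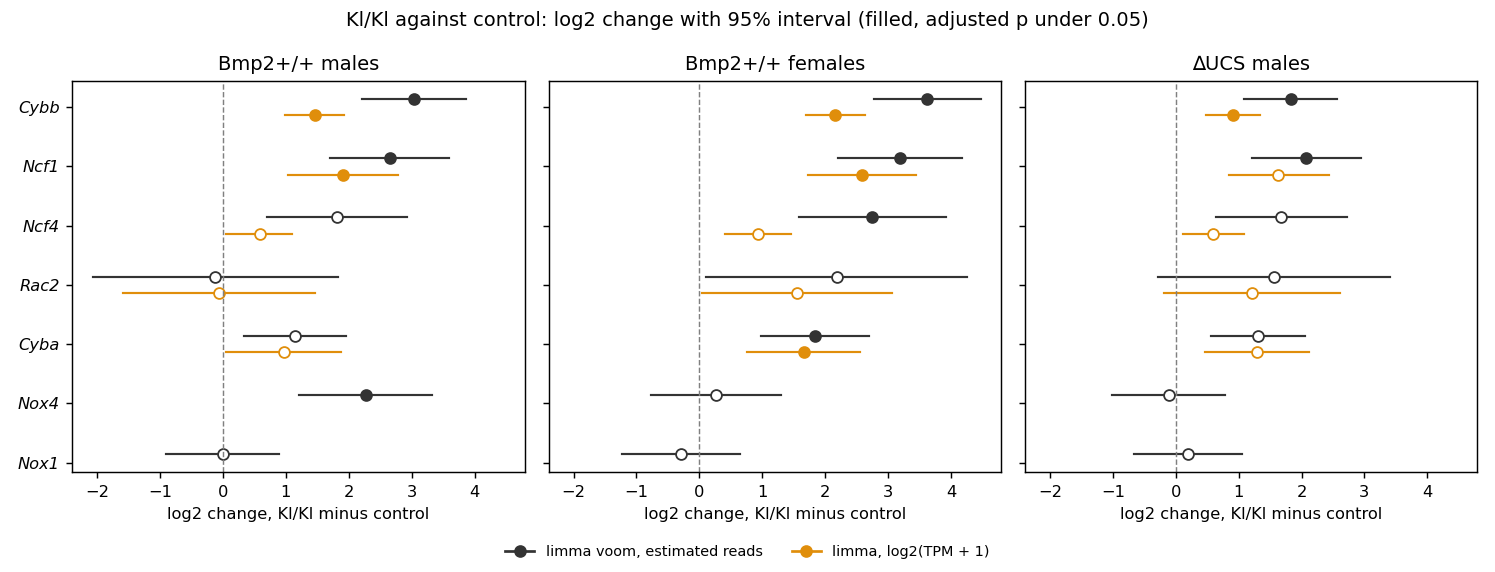
Difference between Kl/Kl and control aortas for each subunit on the log2 scale, with 95% intervals, from limma on log2(TPM + 1) in orange and limma voom on estimated reads in black, for males, females and deltaUCS males with 22 libraries. Filled points have an adjusted p below 0.05, and Cybb is filled in all 3 panels under both tests while Rac2 and Nox1 are open in all 3.

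Set side by side, the phagocyte subunits Cybb and Ncf1 were called by limma voom in all 3 strata, Ncf4 in females and Rac2 in none. Of the smooth muscle subunits, voom called Nox4 in Bmp2+/+ males and Nox1 in none. Voom was not the main test, which called Ncf1 in both Bmp2+/+ strata only and Ncf4 in none. The voom call of Nox4 was lost without single replicates, and its adjusted exact permutation p was 0.143. With all 24 libraries neither test called any member. To compare levels between genes, estimated reads were divided by exon length in kb (GENCODE M21 lengths) and scaled to reads outside mitochondrial genes. Whether reads in introns were counted was not tested, and spans differ (152.6 kb for Nox4 and 52.5 kb for Cybb), so the order of genes is approximate. On that scale the level of Cyba was 52.4 ± 20.2, 50.3 ± 22.8 and 54.2 ± 21.3 in Kl/Kl males, females and deltaUCS males, against 24.6 ± 19.7, 11 ± 1.41 and 19.1 ± 5.3 in their controls (SD, n = 3 or 4). Cybb stood at 30.4 ± 8.8, 51.7 ± 16.7 and 15.3 ± 7.07 in the same Kl/Kl groups, against 3.61 ± 1.92, 3.51 ± 0.83 and 3.48 ± 1.28 in controls. In Kl/Kl females the levels of Cybb and Cyba were within their spread of each other, while in control females that of Cyba was above that of Cybb in every library. Ncf1 stood at 23.0 ± 6.37, 27.6 ± 4.69 and 16.0 ± 5.74 in Kl/Kl, against 4.58 ± 4.4, 2.5 ± 0.249 and 3.55 ± 2.09 in controls. Ncf4 stood at 10.1 ± 4.06, 11.6 ± 3.85 and 8.36 ± 3.63 in Kl/Kl, against 3.99 ± 4.84, 1.45 ± 0.341 and 2.35 ± 1.12 in controls. Control male replicate 3 carried much of the control male levels, which without it were 15.2 for Cyba, 2.4 for Ncf1 and 1.58 for Ncf4.

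On the same scale per exon kb the level of Nox4 was 12.3 ± 8.56, 8.27 ± 2.53 and 7.53 ± 2.86 in Kl/Kl males, females and deltaUCS males, against 2.74 ± 1.67, 5.74 ± 1.52 and 7.07 ± 1.98 in controls. In Kl/Kl aortas of all 3 strata the mean level of Cybb was above that of Nox4. In single libraries the order was turned in deltaUCS Kl/Kl replicate 4 (4.79 for Cybb and 10.8 for Nox4), and in Bmp2+/+ male Kl/Kl replicate 4 the levels were nearly equal (21.6 for Cybb and 22.1 for Nox4). Without that male library the Nox4 mean of Kl/Kl males was 7.34. In control females and control deltaUCS males the mean level of Nox4 was above that of Cybb, and in control males the 2 were within their spread. Rac2 averaged 13.7 ± 6.77, 22.4 ± 22.8 and 29.6 ± 36.7 in Kl/Kl, against 18.4 ± 18.3, 3.34 ± 1.96 and 7.89 ± 7.3 in controls, with an SD near or above the mean in 4 of the 6 groups. Without replicate 1 the Kl/Kl means were 9.28 in females and 11.4 in deltaUCS males, without replicate 3 the control male mean was 9.87, and without replicate 4 the control deltaUCS mean was 4.79. Nox1 was the lowest everywhere, at 0.097, 0.0705 and 0.0834 in Kl/Kl and 0.0918, 0.0728 and 0.0624 in controls.

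For each library the mean log2 of scaled reads of Cybb, Ncf1, Ncf4 and Rac2 was set against that of Nox1 and Nox4. Unlike the levels above, these reads were not divided by exon length. The difference therefore compares libraries, and its sign does not rank both kinds of subunit. Nox1, close to the limit of detection, counts in it as much as Nox4. This difference was 3.69, 3.31 and 3.14 in Kl/Kl Bmp2+/+ males, against 1.96, 0.67, 4.4 and 2.98 in controls, so control replicate 3 exceeded every Kl/Kl male. In females it was 4.39, 3.97 and 4.4 in Kl/Kl aortas, against 0.82, 1.30, 1.29 and 1.69 in controls, with a wide gap between the groups. In deltaUCS males it was 4.43, 4.17, 2.80 and 2.28 in Kl/Kl aortas, against 1.01, 1.92, 0.73 and 3.00 in controls, where control replicate 4 lay above 2 of the Kl/Kl aortas. The libraries left out had 4.21 (labelled male Kl/Kl) and 1.24 (labelled female Kl/Kl). The members were chosen with these data known, so the score is a description with no test.

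**Figure D3:**
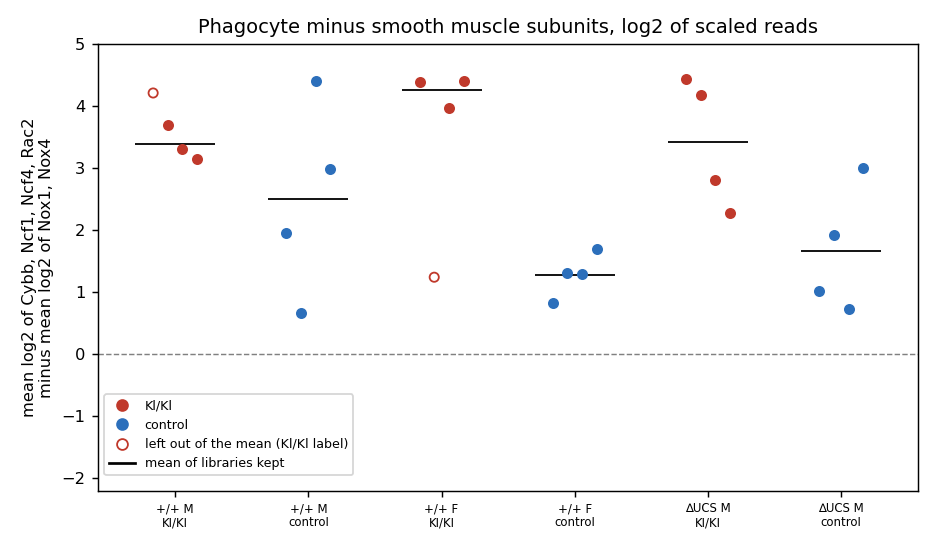
Mean log2 scaled reads of the phagocyte subunits Cybb, Ncf1, Ncf4 and Rac2 minus that of the smooth muscle subunits Nox1 and Nox4. Reads were not divided by gene length, so the sign does not rank both kinds of subunit. Each library is a point, Kl/Kl left of its control, with group means as black lines and left-out libraries as open circles. In Bmp2+/+ females the 3 Kl/Kl libraries kept lie between 3.97 and 4.4 and the controls between 0.82 and 1.69, while both male strata overlap.

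The deltaUCS allele was compared with Bmp2+/+ within Kl/Kl and within control males, and 0 of the 5 members tested were called in either, as were 0.0% of all genes (180 and 216 genes had an unadjusted limma p below 0.05). All deltaUCS libraries, but only some Bmp2+/+ male libraries, were in the first of 2 library sets read from the spelling of library names. The lowest p was that of Cybb in Kl/Kl males, with 1.53 ± 0.822 TPM in deltaUCS and 2.72 ± 0.749 TPM in Bmp2+/+ aortas (SD, n = 4 and 3). The log2(TPM + 1) difference was -0.72 (SE 0.23, 95% interval -1.21 to -0.23, unadjusted p = 0.00627, adjusted p = 1.0 in limma), and within the first library set alone it was -0.74. It was -0.59 with all 24 libraries (95% interval -1.45 to 0.27, unadjusted p = 0.17 in limma). In the same Kl/Kl males the differences of Ncf1, Cyba, Ncf4 and Rac2 were -0.54 (SE 0.43), -0.15 (SE 0.45), -0.17 (SE 0.26) and 0.18 (SE 0.76). In controls those of Cybb, Ncf1, Cyba, Ncf4 and Rac2 were -0.18, -0.26, -0.47, -0.19 and -1.09, each with an adjusted p of 0.959.

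In control males Nox4 averaged 0.271 ± 0.0509 TPM in deltaUCS and 0.118 ± 0.0805 TPM in Bmp2+/+ controls (SD, n = 4 each), a 2.31-fold ratio without overlap (exact permutation p = 0.0286, the smallest possible, and 0.143 adjusted over 10 tests). On scaled reads the groups overlapped and the exact permutation p was 0.0571. Of the 22284 genes tested by voom, 0.346% had deltaUCS controls above Bmp2+/+ controls in TPM without overlap. By limma voom the difference was 2.07 (SE 0.53, unadjusted p = 0.00103, adjusted p = 0.786). In Kl/Kl males Nox4 averaged 0.335 TPM in deltaUCS and 0.574 TPM in Bmp2+/+ aortas (exact permutation p = 0.314, two-sided).

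Whether the Kl/Kl difference itself depended on the Bmp2 allele or on sex was tested as an interaction, and 0 members and 0.0% of all genes were called in either (205 and 142 genes had an unadjusted limma p below 0.05). For Cybb the Kl/Kl effect in deltaUCS males minus that in Bmp2+/+ males was -0.54 on the log2(TPM + 1) scale (SE 0.30, 95% interval -1.18 to 0.09, adjusted p = 0.956 in limma). That in females minus that in males was 0.71 (SE 0.31, unadjusted p = 0.0369, adjusted p = 0.988). These were -0.28 and 0.44 with all 24 libraries (adjusted p of 0.997 and 0.995 in limma). For Nox4 the limma voom interaction was -2.38 for deltaUCS minus Bmp2+/+ males (SE 0.67, 95% interval -3.78 to -0.98, adjusted p = 0.568) and -2.01 for females minus males (SE 0.71, adjusted p = 1). Nox4 was therefore called by limma voom in Bmp2+/+ males and not in the other strata, but a difference between the strata did not pass the adjusted test. The Nox4 difference in Bmp2+/+ males, that between deltaUCS and Bmp2+/+ controls and both interactions rest on the same Bmp2+/+ male controls. Their mean of 0.118 TPM was the lowest of the control groups (0.215 TPM in females and 0.271 TPM in deltaUCS males). They are therefore not separate results.

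Of 24 other oxidase subunits and regulators, 23 were in the table and 9 passed the TPM filter, and 0 of these were called in any Kl/Kl comparison. Their median log2(TPM + 1) differences were 0.24, 0.37 and 0.57 in males, females and deltaUCS males, beside 0.09, 0.29 and 0.26 over all genes. Hvcn1, the proton channel that balances the charge of the phagocyte burst, differed by 0.41, 1.13 and 0.61 (adjusted p of 0.759, 0.117 and 0.377 in limma). Cybc1, which helps the membrane subunits mature, differed by 0.28, 1.07 and 0.57 (adjusted p of 0.848, 0.122 and 0.399). The NOX1 partners Noxa1 and Noxo1 were below the TPM filter and differed by -0.25, 0.54 and 1.2 and by -0.12, 0.07 and 0.08 in limma voom, with none called. In limma voom all 23 were tested, and of these Poldip2, a protein that binds Cyba and supports NOX4, fell by 1.10 in females (adjusted p = 0.0358). It was named after its value was seen, and on TPM its difference was -0.45 (adjusted p = 0.308).

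Of 21 genes that handle superoxide and peroxide, 20 were tested, with medians of 0.19, 0.31 and 0.19 on the log2(TPM + 1) scale in males, females and deltaUCS males. Prdx1, a peroxidase, rose by 0.86 in Kl/Kl females (SE 0.22, adjusted p = 0.044 in limma), and 0 others were called. Under median-of-ratios scaling Prdx1 differed by 0.39 (adjusted p = 0.536), so its call depended on the scaling. Of 9 targets of the oxidant-sensing factor NRF2, 8 were tested and 0 called, with medians of 0.09, 0.34 and 0.29, beside 0.09, 0.29 and 0.26 over all genes. Of 8 other oxidant sources, such as xanthine oxidase and nitric oxide synthases, 2 were tested and 0 called.

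Because every library has the same TPM total, a shift of abundant transcripts moves all other genes. The medians over all genes of 0.09, 0.29 and 0.26 became -0.02, -0.02 and 0.03 under median-of-ratios scaling. The split of calls moved with it, to 223 higher and 153 lower in females (256 and 2 on TPM) and 71 higher and 56 lower in deltaUCS males (53 and 11 on TPM). Under that scaling Cybb rose by 1.35 and 1.92 and Ncf1 by 1.76 and 2.25 in males and females. In deltaUCS males Cybb then differed by 0.73 (adjusted p = 0.0576 in limma), and Ncf1 rose by 1.40 (adjusted p = 0.0103).

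Markers of macrophages moved with the phagocyte subunits. Of 14 listed, 8 passed the TPM filter, and 4, 6 and 4 of these were called higher in Kl/Kl males, females and deltaUCS males, with Cd14, Cd68, Lyz2 and Mpeg1 among them in all 3. The summed TPM of the 14 was 428 to 750 in Kl/Kl males against 46.5 to 223 in controls, 712 to 752 in Kl/Kl females against 55.6 to 91.5 in controls, and 283 to 485 in Kl/Kl deltaUCS males against 44.9 to 138 in controls. The 2 libraries left out had 138 and 73.7 TPM. None of the 14 was at 0 reads in any library. Since this TPM divides by span, genes of short span weigh more, and the sum is no even summary of the 14. Csf1r gave at most 5.2 TPM to it and Adgre1 at most 0.355 TPM. This sum, shares of it and the other marker sums below serve only to set libraries side by side. As a share of that sum, Cybb was 0.293% to 0.59% in Kl/Kl males against 0.235% to 0.329% in controls, 0.539% to 0.74% in Kl/Kl females against 0.361% to 0.42% in controls, and 0.114% to 0.561% in Kl/Kl deltaUCS males against 0.3% to 0.379% in controls. The ranges of this share overlapped in both male strata and lay apart in females. Ncf1 was 0.886% to 1.4% of the sum in Kl/Kl males against 0.747% to 1.41% in controls, 0.83% to 1.44% in Kl/Kl females against 0.649% to 1.29% in controls, and 0.649% to 1.83% in Kl/Kl deltaUCS males against 0.84% to 1.5% in controls, overlapping in all 3. For Cyba the median share was lower in Kl/Kl of each stratum, at 0.917%, 0.632% and 1.39% in Kl/Kl males, females and deltaUCS males against 1.91%, 1.61% and 2.1% in controls. In males the Cyba shares did not overlap, at 0.518% to 1.24% in Kl/Kl against 1.34% to 2.24% in controls. How often other genes lie apart as a share of this sum was not computed, so the separations of Cyba in males and Cybb in females have no background. In deltaUCS Kl/Kl replicate 4 the macrophage sum of 283 TPM was the lowest of the Kl/Kl libraries kept, though above every control. Cybb was at 0.322 TPM there, which gives the share of 0.114%. The part of macrophage RNA in the Cybb, Ncf1 and Cyba results was not tested.

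Rac2 moved with markers of lymphocytes. Over all 24 libraries, the 6 with the most Rac2 were also the 6 with the highest summed T, NK and B cell markers. They had 4.03 to 18.9 TPM of Rac2 and sums of 39.6 to 215 TPM. Of these 6, 4 were labelled Kl/Kl, among them the left-out Bmp2+/+ male Kl/Kl replicate 1, and 2 were controls. The other 18 had at most 3.76 TPM of Rac2 and sums of 1.37 to 33.2 TPM. Rac2 was not alone in this. Replicate 1 of deltaUCS Kl/Kl, replicate 3 of Bmp2+/+ male control and replicate 1 of Bmp2+/+ female Kl/Kl had sums of 215, 94.6 and 90.7 TPM. These libraries also had the most Cyba (10.8, 5.01 and 9.54 TPM) and Ncf4 (1.46, 0.939 and 1.79 TPM) of their groups. In kept Bmp2+/+ male Kl/Kl aortas, replicate 4 had the highest sum but replicate 2 the most Cyba and Ncf4. Of 8 T and NK and 5 B cell markers tested, 0 were called in any Kl/Kl comparison. Neutrophils also carry NOX2, and their markers summed to 15.4 to 127 TPM in Kl/Kl males against 4.25 to 17.5 in controls, 27.0 to 97.6 in Kl/Kl females against 2.94 to 20.3 in controls, and 10.7 to 61.5 in Kl/Kl deltaUCS males against 1.47 to 10.8 in controls. Of 5 tested, 0, 2 and 0 were called in the same order, Lcn2 and Ltf in females. The part of these cells in the results was not tested.

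Smooth muscle markers, by which the tissue label can be checked, were present in every library. Their sum was 119 to 647 TPM in Kl/Kl males against 104 to 369 in controls, 226 to 306 in Kl/Kl females against 165 to 304 in controls, and 190 to 562 in Kl/Kl deltaUCS males against 278 to 450 in controls. Of 10 tested 0 were called, with medians of 0.16, 0.05 and -0.14. Nox4 per 1000 TPM of that sum was 0.83 to 2.23 in Kl/Kl males against 0.229 to 0.69 in controls, with no overlap, 1.06 to 2.46 in Kl/Kl females against 0.848 to 1.29 in controls, and 0.648 to 1.49 in Kl/Kl deltaUCS males against 0.549 to 0.903 in controls. How often other genes lie apart by this ratio was not computed. Markers of neighbouring tissue were also present: heart muscle genes summed to 23.9 to 3860 TPM, airway genes to 6.49 to 3410 TPM and fat cell genes to 945 to 2130 TPM over the libraries kept, beside the smooth muscle genes. Airway markers were 551 to 2590 TPM in Kl/Kl males against 441 to 1890 in controls, 2480 to 3410 in Kl/Kl females against 269 to 1350 in controls, and 984 to 2550 in Kl/Kl deltaUCS males against 6.49 to 915 in controls, apart in females and deltaUCS males. Heart muscle markers were 128 to 2830 TPM in Kl/Kl males against 149 to 1260 in controls, 351 to 3860 in Kl/Kl females against 161 to 311 in controls, and 81.0 to 2390 in Kl/Kl deltaUCS males against 23.9 to 773 in controls, apart in females. Fibroblast markers were apart in females too, at 92.9 to 126 TPM in Kl/Kl against 41.2 to 64.8 in controls, and overlapped in both male strata. The part of these tissues in the subunit results was not tested.

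**Figure D4:**
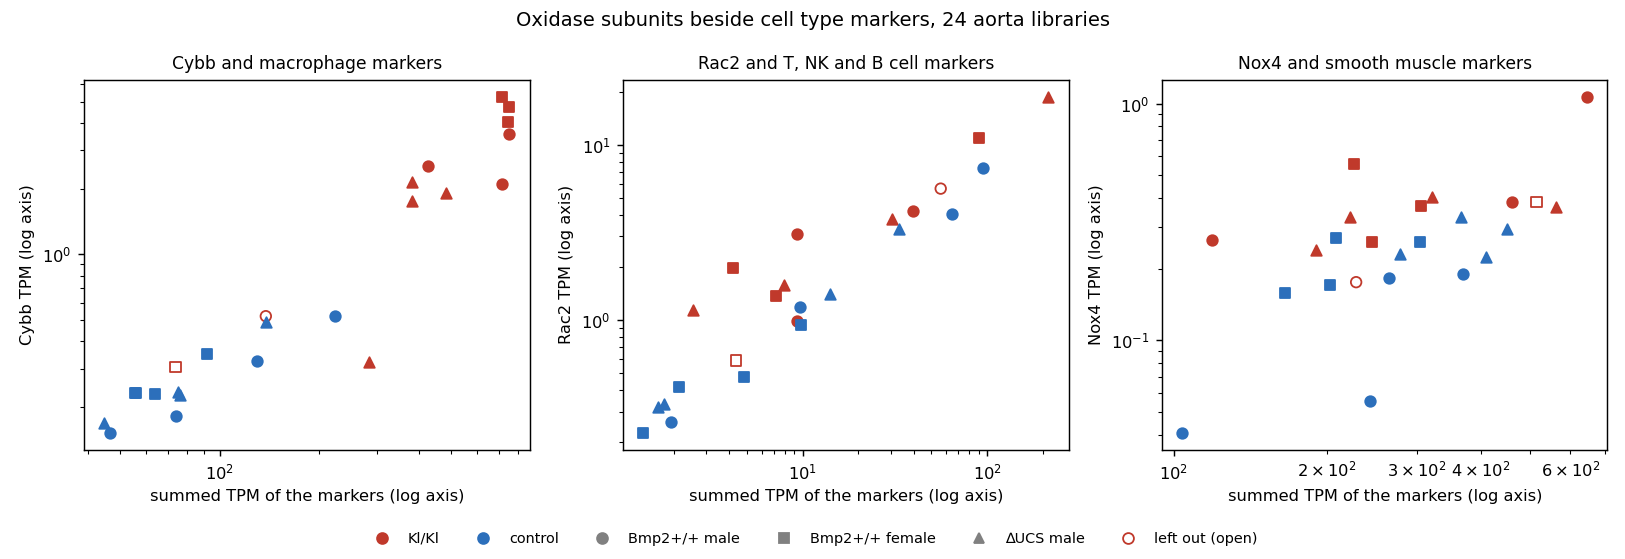
Cybb, Rac2 and Nox4 (TPM, log axis) against the summed TPM (log axis) of macrophage, T, NK and B cell, and smooth muscle markers in all 24 libraries, with Kl/Kl in red, controls in blue, a circle, square or triangle for each stratum and open symbols for the 2 libraries left out. Of the 10 libraries highest in Cybb, 9 are among the 10 highest in macrophage markers, while the 6 highest in Rac2 are the 6 highest in lymphocyte markers.

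The genes whose pattern was most like that of Cybb over the 22 libraries, of 22284 compared by Pearson's r on log2 scaled reads, were Plek (0.98), Mpeg1 (0.98), Naip2 (0.978), Tlr13 (0.977) and Lilrb4a (0.977). Among the other 6 members, r with Cybb was 0.93 for Ncf1, 0.817 for Ncf4, 0.704 for Cyba, 0.42 for Rac2, 0.292 for Nox4 and -0.082 for Nox1. For Nox4 the most alike were Fibin (0.904), Ccn3 (0.903), Esyt2 (0.901), Npy1r (0.9) and Entpd1 (0.898). These values describe libraries that share groups and depth, and carry no p.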

How the data were processed

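The authors deposited TPM for 32561 genes in 24 aorta libraries. The submitters' processing notes name Partek and mm39. Per the labels' protocols, RNA of frozen aortas came from a miRNeasy kit, and polyA libraries were directional. Not given in the sources used here are the aligner, the annotation, the use of strand and the rule for reads matching several genes. Every deposited TPM column sums to 482073. The lowest values stand for 0 reads plus 0.0001 read over the genomic span, so reads were estimated from the lowest 2000 values of each library. Of 173733 low values, 76.3% came within 0.05 of a whole read. All 24 sample columns were used (0 unused), and 0 pairs of libraries held identical values.

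The main test was limma 3.58.1 (R 4.3.3, eBayes with a trend) on log2(TPM + 1), with 6 group means and the library set (1 or 2, inferred from library name spelling), for 9933 genes with at least 1 TPM in at least 4 samples. It used the 22 libraries whose Xist and Ddx3y fit the labelled sex. It was chosen knowing that 24 libraries give 0 calls. P-values are two-sided and adjusted by Benjamini-Hochberg. Nox1 and Nox4, below the filter, were tested with exact permutation tests on TPM (numpy 2.4.6). They were also tested with limma voom on estimated reads (22284 genes, a minimum of 10 reads in 4 samples, without mitochondrial genes, median-of-ratios scaling). The procedure was tested on simulated data. Intervals on reads cover counting error and replicate spread only as the models estimate them.

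The members, the gene lists, the marker lists, the motifs and the rule for named genes (all 7 members, and of each list the members that passed) were chosen with earlier results of these data known. A gene of the lists is not reported here. Sequences came from RefSeq's GRCm38.p6 promoter table, and exon lengths from GENCODE M21. Other settings were all 24 libraries, another scaling, pseudocount and filter, limma voom, age as a covariate, no library set, the replicate number as a block, the compared groups alone, library set 1 or 2 alone, and leaving out each replicate.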

Additional observations from a re-analysis of the deposited data

Results flagged for a closer look

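Dixon's test at the 95% level was run on groups of 4, and chance flags about 1 in 20 groups. Groups of 3, among them the Kl/Kl groups with a library left out, were not tested. It picked out 4 values. Cybb in Bmp2+/+ female control replicate 1 was 0.352 TPM, with the other controls at 0.229 to 0.233 TPM. Ncf4 in Bmp2+/+ male control replicate 3 was 0.939 TPM, against 0.066 to 0.194 TPM in the other controls. That library had summed T, NK and B cell markers of 94.6 TPM, the highest of all controls. Ncf4 in Bmp2+/+ female control replicate 1 was 0.0732 TPM, against 0.12 to 0.127 TPM in the others. Rac2 in deltaUCS male Kl/Kl replicate 1 was 18.9 TPM, against 1.14 to 3.76 TPM in the others, and the same library had the highest summed T, NK and B cell markers of all, 215 TPM.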

How the results depend on the processing

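With all 24 libraries, by limma on TPM, with median-of-ratios scaling or by voom, 0 members were called in males, females and deltaUCS males. In males the 2 calls became 1 with no filter, with at least 5 TPM and with the replicate block, and 0 with only the compared groups or library set 1 alone (2 libraries a group). In deltaUCS males the 1 call became 2 with a pseudocount of 0.1, voom or no library set, and 0 with age as a covariate, no filter, only the compared groups, library set 1 alone or the replicate block. Set 1 alone gave Cybb 1.49 in males and 0.91 in deltaUCS males. The replicate numbers do not pair the samples (same-number correlations -0.48 to 0.32). With the block Cybb kept its call in males, Ncf1 had an adjusted p of 0.0646, Cyba in females 0.0777 and Cybb in deltaUCS males 0.0827. Leaving out each replicate gave 1 to 4 calls in males, 2 to 4 in females and 0 to 2 in deltaUCS males, and 0 in every Bmp2 comparison and interaction.

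Directions that turned were those of values not called. Rac2 in males (-0.06) became 0.31, 0.21 and 0.52 with 24 libraries (TPM, median-of-ratios, voom), 0.11 with a pseudocount of 0.1, 0.08 with no library set or with age, and 0.11 with the replicate block, and ran -1.19 to 0.48 without single replicates. For deltaUCS minus Bmp2+/+ in Kl/Kl males, Cyba became 0.06 with no library set and 0.19 with the compared groups or set 1 alone (-0.94 to 0.19 without single replicates), and Rac2 became -0.0047 and -0.18 with 24 libraries (TPM, voom) and -0.04 with the replicate block (-0.54 to 0.75). In control males leaving out replicates gave -0.48 to 0.31 for Ncf1 and -0.32 to 0.15 for Ncf4. For the deltaUCS interaction, Ncf1 became 0.35 with set 1 alone (-0.7 to 0.35), Ncf4 became -0.13 and -0.12 by voom (22 and 24 libraries), -0.0018 with no library set and -0.02 with the replicate block (-0.27 to 0.35), and Cyba ran -0.27 to 1.01. By voom Nox4 ran -0.02 to 0.44 in females, -0.44 to 0.2 in deltaUCS males and -0.71 to 0.0027 for deltaUCS minus Bmp2+/+ Kl/Kl males, and Nox1 ran -0.27 to 0.1 in males and became 0.02 for females minus males with 24 libraries. As TPM differences, Nox1 became -6.78e-05 (males) and 8.34e-05 (deltaUCS minus Bmp2+/+, Kl/Kl) with 24 libraries, and -0.0576 in females on scaled reads. It ran -0.000143 to 0.000785 in males, -0.00028 to 0.000791 in females and -0.000769 to 0.000159 for deltaUCS minus Bmp2+/+ Kl/Kl, where Nox4 ran -0.393 to 0.0115. The cause of these turns was not tested. Over limma results of single members, called ones kept their call in 43 of 75 cases under other settings and in 25 of 43 without single replicates, and lost it in 32 and 18. Those not called stayed so with the same direction in 332 of 361 and 262 of 287 cases, turned direction in 18 and 20, and became called in 11 and 5. Depth limits Nox1 (2 to 20 reads) most.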
